A study of Homo sapiens with 12 samples.

Results

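The effect of tumour necrosis factor (TNF) was measured in MDA-MB-231 cells, a human triple-negative breast cancer line that carries a mutant p53, on 6 of the 12 arrays of the series. The 3 TNF arrays came from cells transfected with a control siRNA and given TNF at 10 ng/ml for 20 h. The 3 untreated arrays came from control siRNA cells kept for the same 20 h without TNF. All these cells grew in 10% serum and were moved to 0.1% serum at 48 h after transfection, so both groups carry the transfection and the low serum. The remaining 6 arrays hold the same pair of treatments, TNF and untreated, in cells given a p53 siRNA. They entered the joint normalisation, the detection filter and the choice of probe. They also entered the shared estimate of spread and the comparison of responses at the end. Total RNA was read on 1-colour Illumina bead arrays, the labels call the 3 samples of a group biological replicates, and all samples are of this 1 cell line.

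TNF is a cytokine that binds receptors on the cell surface and sets up a signalling complex of adaptor, kinase and ubiquitin-ligase proteins. The complex releases NF-kB, a family of dimeric transcription factors, from inhibitor proteins, and NF-kB then switches on cytokines, adhesion molecules, survival genes and its own inhibitors, which limit the response. In breast cancer cells this pathway is known for secreted chemokines and matrix proteases, and the receptor complex can also lead to cell death.

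The control siRNA arrays were alike, with correlations of 0.992 to 0.993 within each group, a median intensity of 237.8 to 266 and 20111 to 21150 of 47322 probes detected. Among the p53 siRNA arrays, untreated replicate 3 stood apart, at 0.974 to 0.977 with its group. Markers of the line were present, since VIM, CD44, EGFR, AXL, CAV1, MSN, MET and ANXA1 were detected on all 6 control siRNA arrays, but SPARC was detected on none. Of luminal markers KRT19, EPCAM, SPDEF and ERBB3 were detected on all 6 and ESR1, PGR and CDH1 on none. Of leukocyte markers CD14, CD68, CSF1R and LYZ were detected on all 6 and PTPRC, CD3E and HCLS1 on none. Of fibroblast and endothelial markers PDGFRB and PECAM1 were detected on all 6 and COL1A2, COL3A1, VWF, CDH5 and KDR on none. The summed linear level of the 6 tested of 10 fibroblast and endothelial markers was 1530 to 1844 with TNF and 989 to 1106 untreated, with PECAM1, LUM and COL1A1 called higher. The 6 tested leukocyte markers summed to 8612 to 9663 with TNF and 8233 to 9696 untreated, with LYZ called lower, and the 7 tested luminal markers to 23006 to 24429 with TNF and 21453 to 23708 untreated, with 0 called by limma.

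A gene was called changed at a Benjamini-Hochberg adjusted p under 0.05 in limma, fitted over all 12 arrays, and every p below is such an adjusted p over the 12507 genes tested. TNF changed 1199 genes, 9.59% of those tested. Of these, 612 were higher (4.89% of genes tested) and 587 lower (4.69%). The rises were larger than the falls: 187 genes rose and 88 fell at least 2-fold, 46 rose and 5 fell at least 4-fold, and 16 rose and 0 fell at least 8-fold. The median change was 0.77 on the log2 scale among rises and -0.67 among falls, against -0.01 over all genes tested. Values did not overlap between the 3 TNF and 3 untreated arrays for 1197 of the 1199 calls, and for 4218 genes (33.7%) of all tested. Of the called genes 52 were detected on all TNF arrays and no untreated array, and 21 the other way round. Of the 1199 calls 1186 had a probe detected on at least 3 of the 6 control siRNA arrays. The number of calls moved with single arrays: it was 736 without control untreated replicate 3, 739 without control TNF replicate 3, 770 without control untreated replicate 1, 772 without control TNF replicate 1 and 798 without control untreated replicate 2. It was 1894 with p53 siRNA untreated replicate 3 left out of the fit, which that array enters only through the shared spread. No called gene changed direction when an array was left out.

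**Figure D1:**
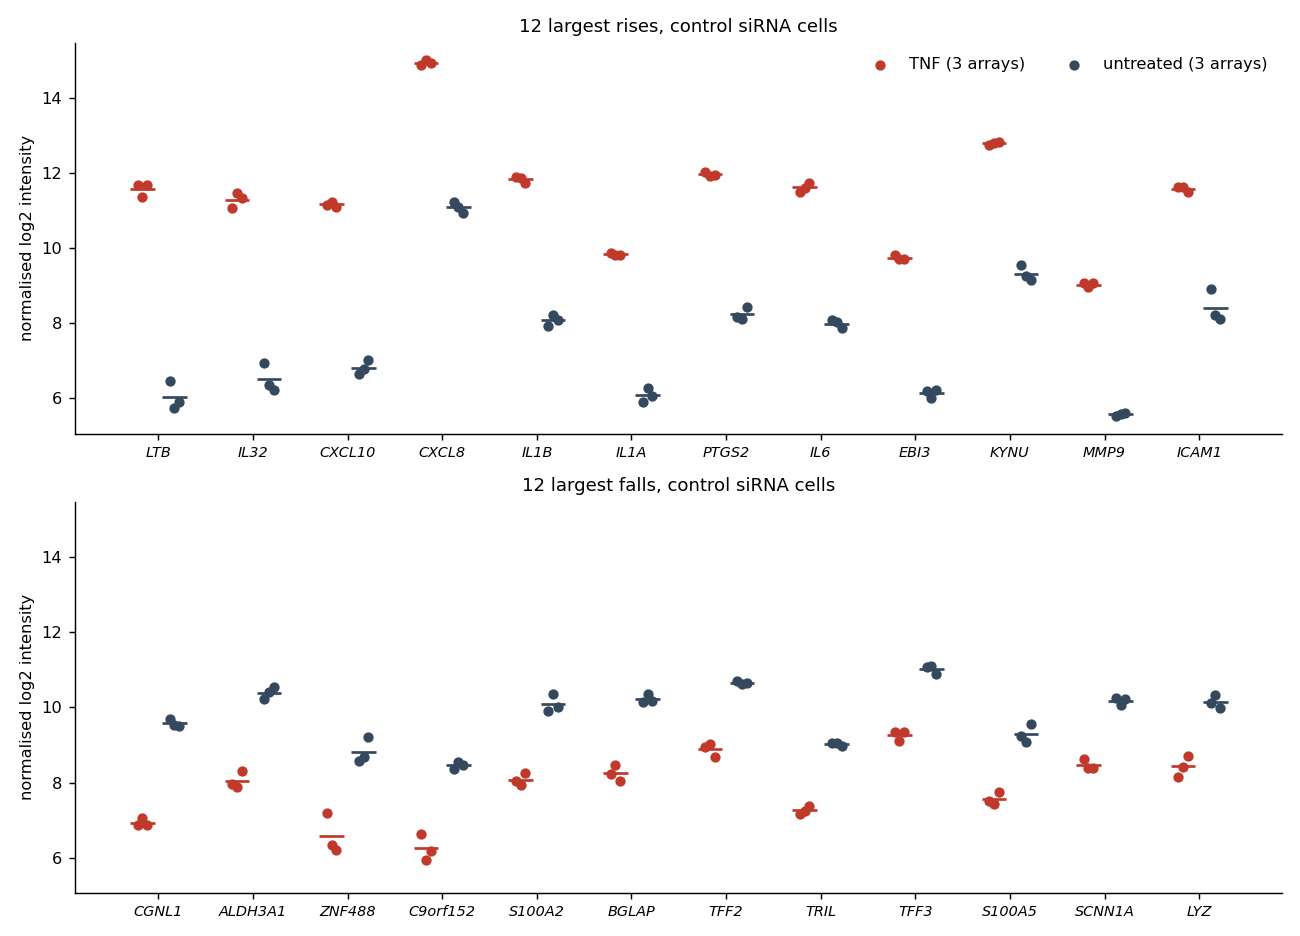
Normalised log2 intensity of the 12 genes with the largest rise (upper panel) and the 12 with the largest fall (lower panel) on each control siRNA array, TNF at the left of each pair and untreated at the right, with lines at the means of 3 arrays. For each of these 24 genes the 3 TNF points and the 3 untreated points lie apart.

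The largest rise was that of LTB, lymphotoxin beta, a membrane-bound ligand of the TNF superfamily. Its normalised log2 intensity was 11.70, 11.37 and 11.68 with TNF, against 6.48, 5.74 and 5.91 untreated, a change of 5.54 ± 0.20 (SE, adjusted p = 7.65e-09), and a further LTB probe changed by 3.77. LTB was detected on 1 of the 3 untreated arrays, so its untreated level lay near background. IL32, an inflammatory cytokine, read 11.06, 11.48 and 11.34 with TNF and 6.96, 6.36 and 6.22 untreated, a change of 4.78 ± 0.20 (adjusted p = 2.43e-08). IL32 too was detected on 1 of the 3 untreated arrays. The chemokine CXCL10, which attracts activated T cells, stood at 11.16, 11.24 and 11.11 with TNF and 6.64, 6.77 and 7.02 untreated, a change of 4.36 ± 0.15 (adjusted p = 5.46e-09). In all 3 genes the lowest TNF array lay more than 4 log2 units above the highest untreated array.

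CXCL8, the neutrophil attractant interleukin 8, was already detected on every untreated array. It reached 14.87, 15 and 14.94 with TNF, against 11.24, 11.10 and 10.95 untreated, a 14.4-fold rise (adjusted p = 1.04e-08), and its further probe changed by 3.97. IL6, a cytokine that signals through STAT3, read 11.50, 11.61 and 11.75 with TNF and 8.08, 8.03 and 7.87 untreated, 12.3-fold higher (adjusted p = 7.5e-08). IL1B, the form of interleukin 1 that inflammasomes process, read 11.90, 11.87 and 11.75 with TNF and 7.94, 8.23 and 8.08 untreated, 13.5-fold higher (adjusted p = 1.31e-09). These groups too did not overlap.

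Several top genes were not detected on any untreated array, and for them the rise has only a lower bound, set against the lowest signal detected on each array. IL1A, the cell-associated form of interleukin 1, was at least 10.6-fold higher with TNF, at 9.87, 9.83 and 9.82 with TNF and 5.91, 6.28 and 6.07 untreated (adjusted p = 1.95e-06). EBI3, a subunit shared by cytokines of the interleukin 12 family, was at least 9.98-fold higher (adjusted p = 6.01e-08) and MMP9, gelatinase B, a protease that cuts basement membrane collagen, at least 6.06-fold higher (adjusted p = 1.31e-09). For CCL20, a chemokine for CCR6-bearing lymphocytes, the bound was 6.78-fold, for CXCL2, a neutrophil chemokine, 6.31-fold, for the tryptophan-degrading enzyme IDO1 4.68-fold, and for RND1, a small GTPase that loosens the actin cytoskeleton, 3.93-fold. All 7 were detected on the 3 TNF arrays.

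The rest of the 25 largest rises ran between 2.70 and 3.72 on the log2 scale. PTGS2, the inducible cyclooxygenase, read 12.03, 11.92 and 11.95 with TNF and 8.17, 8.12 and 8.44 untreated. ICAM1, the endothelial and epithelial ligand of leukocyte integrins, read 11.63, 11.63 and 11.51 with TNF and 8.92, 8.21 and 8.11 untreated (change 3.18 ± 0.20, adjusted p = 1.16e-06). Among the others were KYNU (3.47), an enzyme of the kynurenine pathway, CXCL1 (3.08), CX3CL1 (2.90), a membrane-anchored chemokine, UBD (2.92), a ubiquitin-like modifier that marks proteins for degradation, TNFAIP3 (2.87), SAA1 (2.70), an acute-phase protein, and TMEM132A (3.04). SLC25A24, a mitochondrial carrier of ATP, rose by 2.92 at its brightest probe while its 2 further probes gave -0.15 and 0.29, so its probes disagreed. SAA1 and SAA2 are near-identical copies, and a probe may take signal from either. UBD was detected on 1 of the 3 untreated arrays.

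For 19 of these 25 genes RefSeq (assembly GRCh38.p14) gave a promoter window of 250 bases before to 50 bases after the gene's start, and the windows were searched on both strands for patterns bound by the NF-kB family. The patterns were the kB consensus decamer and the shorter GGAANTTCC, which can overlap each other and are counted here as 1 class. Of the 19 windows 12 held a kB pattern: those of LTB, IL32, CXCL10, CXCL8, IL6, ICAM1, CXCL1, CCL20, UBD, TNFAIP3, CXCL2 and MIR3142HG. The windows of IL1B, IL1A, PTGS2, EBI3, KYNU, COXFA4L3 and SLC25A24 held none, which says only that these letters were not in those 300 bases. The 5 windows below are shown because they belong to the 5 largest rises whose window holds the pattern, with every match in capitals. The windows lie at chr6:31582376-31582675 for LTB (minus strand), chr16:3065153-3065452 for IL32 (plus), chr4:76023448-76023747 for CXCL10 (minus), chr4:73740319-73740618 for CXCL8 (plus) and chr7:22726950-22727249 for IL6 (plus).
LTB: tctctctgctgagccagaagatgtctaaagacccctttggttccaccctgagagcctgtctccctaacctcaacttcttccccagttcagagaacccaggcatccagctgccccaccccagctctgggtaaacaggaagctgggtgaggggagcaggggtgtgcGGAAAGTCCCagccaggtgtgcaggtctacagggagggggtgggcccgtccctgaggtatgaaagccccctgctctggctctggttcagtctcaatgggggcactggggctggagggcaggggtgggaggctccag
IL32: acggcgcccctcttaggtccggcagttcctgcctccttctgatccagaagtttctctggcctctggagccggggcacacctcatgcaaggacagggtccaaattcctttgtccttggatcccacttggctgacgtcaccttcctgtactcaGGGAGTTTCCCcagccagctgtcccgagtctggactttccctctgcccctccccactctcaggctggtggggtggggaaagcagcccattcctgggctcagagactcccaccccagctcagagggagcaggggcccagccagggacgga
CXCL10: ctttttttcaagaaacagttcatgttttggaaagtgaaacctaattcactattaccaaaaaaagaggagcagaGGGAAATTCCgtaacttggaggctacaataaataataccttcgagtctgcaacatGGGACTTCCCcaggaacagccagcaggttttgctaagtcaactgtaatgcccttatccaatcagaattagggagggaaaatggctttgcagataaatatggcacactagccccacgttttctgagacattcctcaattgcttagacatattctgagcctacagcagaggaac
CXCL8: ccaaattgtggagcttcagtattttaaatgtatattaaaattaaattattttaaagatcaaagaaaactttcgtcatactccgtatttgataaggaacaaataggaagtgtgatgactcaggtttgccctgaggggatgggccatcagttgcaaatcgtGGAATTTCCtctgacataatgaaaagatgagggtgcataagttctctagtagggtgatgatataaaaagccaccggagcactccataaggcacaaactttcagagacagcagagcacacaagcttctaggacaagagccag
IL6: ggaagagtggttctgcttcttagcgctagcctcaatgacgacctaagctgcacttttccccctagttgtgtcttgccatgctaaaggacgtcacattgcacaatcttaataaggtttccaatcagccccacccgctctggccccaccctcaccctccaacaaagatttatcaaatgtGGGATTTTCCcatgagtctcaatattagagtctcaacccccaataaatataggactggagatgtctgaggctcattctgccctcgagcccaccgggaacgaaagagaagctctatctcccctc
In LTB the match began 86 bases before the start, in CXCL8 91 and in IL6 73. IL32 held overlapping matches that began 99 and 98 bases before the start. CXCL10 held a pair of overlapping matches that began 177 and 176 bases before it and a separate match at 122.

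Over larger sets the share of windows with a kB pattern was 45.5% (15 of 33) for genes called higher at least 4-fold, 22.3% (31 of 139) for those called higher at least 2-fold and 15.8% (75 of 476) for all called higher. It was 6.37% for genes called lower, 7.08% for genes not called and 6.43% of the 27305 promoters in the table. The AP-1 pattern TGANTCA stood in 13.7% of windows of genes called higher at least 2-fold, 11.1% of those called lower at least 2-fold, 4.49% of those not called and 7.76% of all promoters. The cyclic AMP pattern TGACGTCA stood in 2.16% of genes called higher at least 2-fold, 3.35% of genes not called and 1.98% of all promoters. A window was found for 9985 of the 12507 genes tested and 947 of the 1199 called. These are matches of letters, not measured binding.

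**Figure D2:**
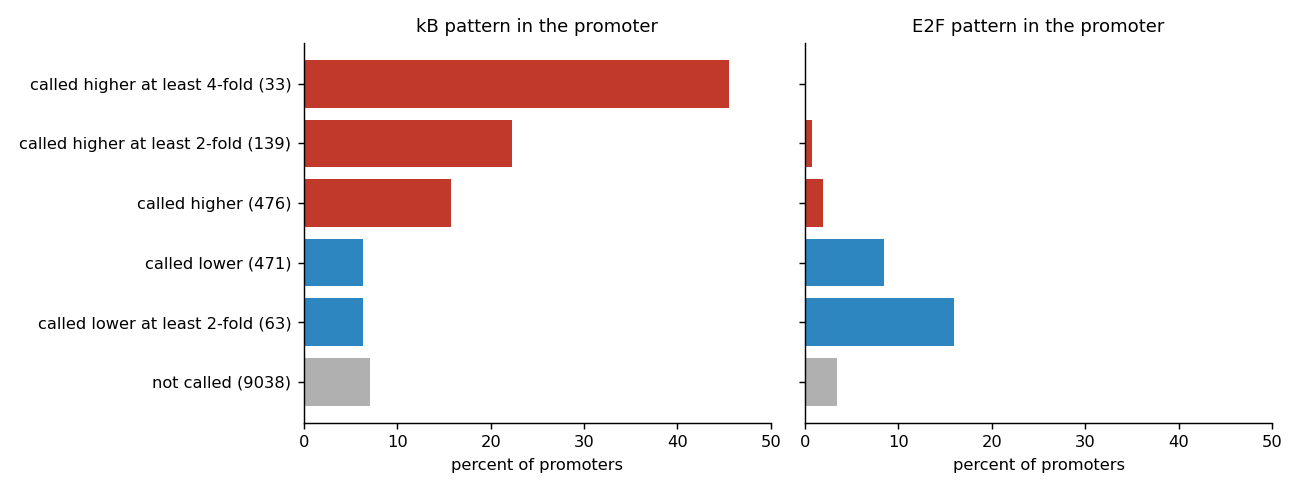
Percent of promoter windows with a kB pattern (left) and with an E2F pattern (right), by how the gene was called with TNF in control siRNA cells, with the number of windows in brackets. The kB share is highest in genes called higher at least 4-fold (45.5%), and the E2F share in genes called lower at least 2-fold (15.9%).

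A pair of the most changed transcripts are hosts of microRNAs. COXFA4L3, a mitochondrial protein gene on chromosome 15 that is also a microRNA host, read 12.91, 13.05 and 12.92 with TNF and 9.74, 9.91 and 9.77 untreated, a change of 3.15 ± 0.22 (adjusted p = 1.99e-06), and its further probes gave 1.75 and 3.38. MIR3142HG, the host transcript of miR-146a on chromosome 5, was detected on no untreated array and was at least 4.22-fold higher with TNF (adjusted p = 6.44e-06). miR-146a is known to target the NF-kB adaptors TRAF6 and IRAK1. The mature microRNAs inside these hosts, which the arrays did not measure, are shown with the seed (bases 2 to 8) in capitals to name what the transcripts carry, and the 4 seeds differ.
hsa-miR-147b-3p: gUGUGCGGaaaugcuucugcu
hsa-miR-146a-5p: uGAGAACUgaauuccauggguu
hsa-miR-146a-3p: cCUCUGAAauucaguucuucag
hsa-miR-3142: aAGGCCUUucugaaccuucaga
The sequences are those of RefSeq. In all, 85 annotated hairpins, on either strand, lay inside 74 called genes, and 41 of these genes were called higher. The same count over all genes tested was not made, so it is not known whether called genes hold hairpins more often.

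The genes were also read by 65 lists of pathways and families, which hold 440 of the called genes. In the receptor complex list, 7 of 23 tested members rose, 0 fell, and the median change was 0.22. TNFAIP3 (A20), the deubiquitinase that shuts off signalling to NF-kB, read 9.54, 9.45 and 9.35 with TNF and 6.90, 6.57 and 6.25 untreated, a change of 2.87 ± 0.15 (adjusted p = 1.47e-07). TNIP1, an A20-binding inhibitor, read 13.85, 13.79 and 13.93 with TNF and 11.81, 11.66 and 11.65 untreated, a change of 2.15 ± 0.10 (adjusted p = 7.76e-08). TRAF1 (2.25) and TRAF3 (1.40), receptor adaptors, and BIRC2 (0.91), a ubiquitin ligase of the complex, also rose. The receptors themselves were not called: the change was -0.04 for TNFRSF1A (adjusted p = 0.925) and 0.13 for TNFRSF1B (adjusted p = 0.841), and the groups overlapped for each.

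Among NF-kB subunits, kinases and inhibitors, 10 of 20 members rose and 1 fell, with a median of 0.46. RELB, partner of the non-canonical arm, read 10.40, 10.19 and 10.22 with TNF and 7.77, 7.71 and 7.82 untreated, a 5.67-fold rise (adjusted p = 8.53e-08). NFKB2, the precursor of p52, rose by 2.11, NFKB1, the precursor of p50, by 0.96 and the kinase IKBKE by 2.51. RELA, the main activating subunit, gave 0.41 ± 0.15 and was not called (adjusted p = 0.125). The inhibitors rose with them: NFKBIA by 1.69, NFKBIE by 1.51 and NFKBIB by 0.89. The member that fell was MAP3K14 (-0.85, adjusted p = 0.00266), the kinase NIK of the non-canonical arm.

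Of 27 tested TNF superfamily ligands and receptors, 8 rose and 0 fell. After LTB the largest changes were those of TNFRSF9 (2.42), the T cell costimulator 4-1BB, and TNFSF10 (2.23), the death ligand TRAIL, which read 10.16, 10.46 and 10.24 with TNF and 8.14, 7.99 and 8.04 untreated. TNF itself was detected on all 3 TNF arrays and no untreated array, and was at least 1.33-fold higher (adjusted p = 6.35e-05). The TRAIL receptor TNFRSF10B rose by 0.75.

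Only 11 of the 34 chemokine genes on the array were detected often enough to test. Of these 6 rose, all with a fitted change of at least 2.87 on the log2 scale, and 1 fell (CCL26, -0.58). The median over the 11 was 2.87. Among interleukins, their receptors and colony-stimulating factors 14 of 31 rose and 0 fell. Besides those above they were CSF3 (2.43), which drives neutrophil production, IL23A (undetected in untreated cells, at least 2.27-fold higher), a subunit of interleukin 23, CSF1 (1.30), the macrophage growth factor, IL24 (1.21), IL11 (1.11) and IL12A (0.71), and the receptor chains IL6ST (0.89), IL4R (0.63) and OSMR (0.57). CSF3 was detected on 1 untreated array. Of 23 JAK, STAT, SOCS and IRF genes, which act downstream of such receptors, 13% were called, against 9.59% of all genes tested: STAT6 (0.63) and STAT5A (0.55) rose and STAT4 (undetected with TNF, at least 1.52-fold lower) fell. In that list 4 rose without p53 siRNA untreated replicate 3 and 0 or 1 without any 1 control siRNA array.

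Of 45 interferon-induced genes tested 2 rose, ISG20 (1.04), an antiviral exonuclease, and GBP2 (0.74), a guanylate-binding protein, and 0 fell. The rises were 4.44% of the list, near the 4.89% of all genes tested that were called higher. For falls the share over all genes tested was 4.69%. At an unadjusted p under 0.05, 6 were higher and 5 lower, and without p53 siRNA untreated replicate 3 the calls were 4 higher and 2 lower. The median of the list was 0.10.

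Of 28 pattern recognition receptors and adaptors 8 rose and 0 fell, among them IRAK2 (2.08), a kinase of interleukin 1 receptors, TLR5 (1.20), the flagellin receptor, and AIM2 (1.09), a DNA sensor. NLRP3, an inflammasome sensor, read 9.51, 9.80 and 9.73 with TNF and 8.31, 8.34 and 8.30 untreated, a change of 1.37 ± 0.10 (adjusted p = 3.83e-06), and its further probes gave 0.51 and 1.33. The count in this list was 5 with TNF replicate 1 or 3, or untreated replicate 2 or 3, left out.

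In the complement and coagulation list 8 of 31 rose and 4 fell. CFB, the protease factor of the alternative pathway, read 12.70, 12.64 and 12.36 with TNF and 10.57, 10.57 and 10.64 untreated, 3.93-fold higher (adjusted p = 9.64e-06). C3, the central complement protein, was detected with TNF alone and was at least 1.85-fold higher (adjusted p = 1.82e-06). C1R (0.80) and C1S (1.10), proteases of the classical pathway, and the thrombin inhibitors SERPINE2 (1.66) and SERPIND1 (undetected in untreated cells, at least 2.98-fold higher) rose. C5, which starts the lytic complex, fell to 8.07, 7.92 and 7.82 with TNF, against 9.39, 9.22 and 9.20 untreated (adjusted p = 7.01e-05), and CFD, CFP and F2RL3 also fell, though 2 of the 4 falls were called with control TNF replicate 1 or 3, or with control untreated replicate 2, left out.

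The S100, lipocalin and antimicrobial list moved both ways, with 5 of 21 higher and 6 lower, and 3 lower with TNF replicate 1 or 3, or untreated replicate 2 or 3, left out. The rises were SAA1, LCN2 (1.07), an iron-sequestering lipocalin, and 3 genes undetected in untreated cells: PTX3, a pattern-binding pentraxin, at least 2.29-fold higher, PI3, the elastase inhibitor elafin, at least 1.55-fold, and SAA2, at least 1.12-fold. S100A2, a calcium-binding protein of epithelia, fell to 8.04, 7.93 and 8.25 with TNF, against 9.92, 10.35 and 10 untreated (change -2.01 ± 0.26, adjusted p = 0.000404). S100A5 (-1.73) and S100P (-0.90) fell as well. LYZ, lysozyme, fell by 1.71 at its brightest probe while its other probe gave -0.28.

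Antigen presentation genes of both HLA classes rose: 9 of 27 listed members were called higher and 0 lower, with a median of 0.32. In class I HLA-B read 14.61, 14.64 and 14.52 with TNF and 13.36, 13.47 and 13.54 untreated, a 2.19-fold rise (adjusted p = 0.000172), and HLA-F (0.76), the peptide transporter TAP1 (0.66) and its partner TAPBP (0.89, further probes 0.13 to 0.97) rose with it. In class II HLA-DRA (0.93), HLA-DPA1 (0.80), HLA-DMB (0.79) and the invariant chain CD74 rose. CD74 read 14.22, 14.30 and 14.03 with TNF and 13.23, 13.17 and 13.23 untreated (adjusted p = 0.000715). HLA genes are near-identical copies, so probes may share signal between them.

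**Figure D3:**
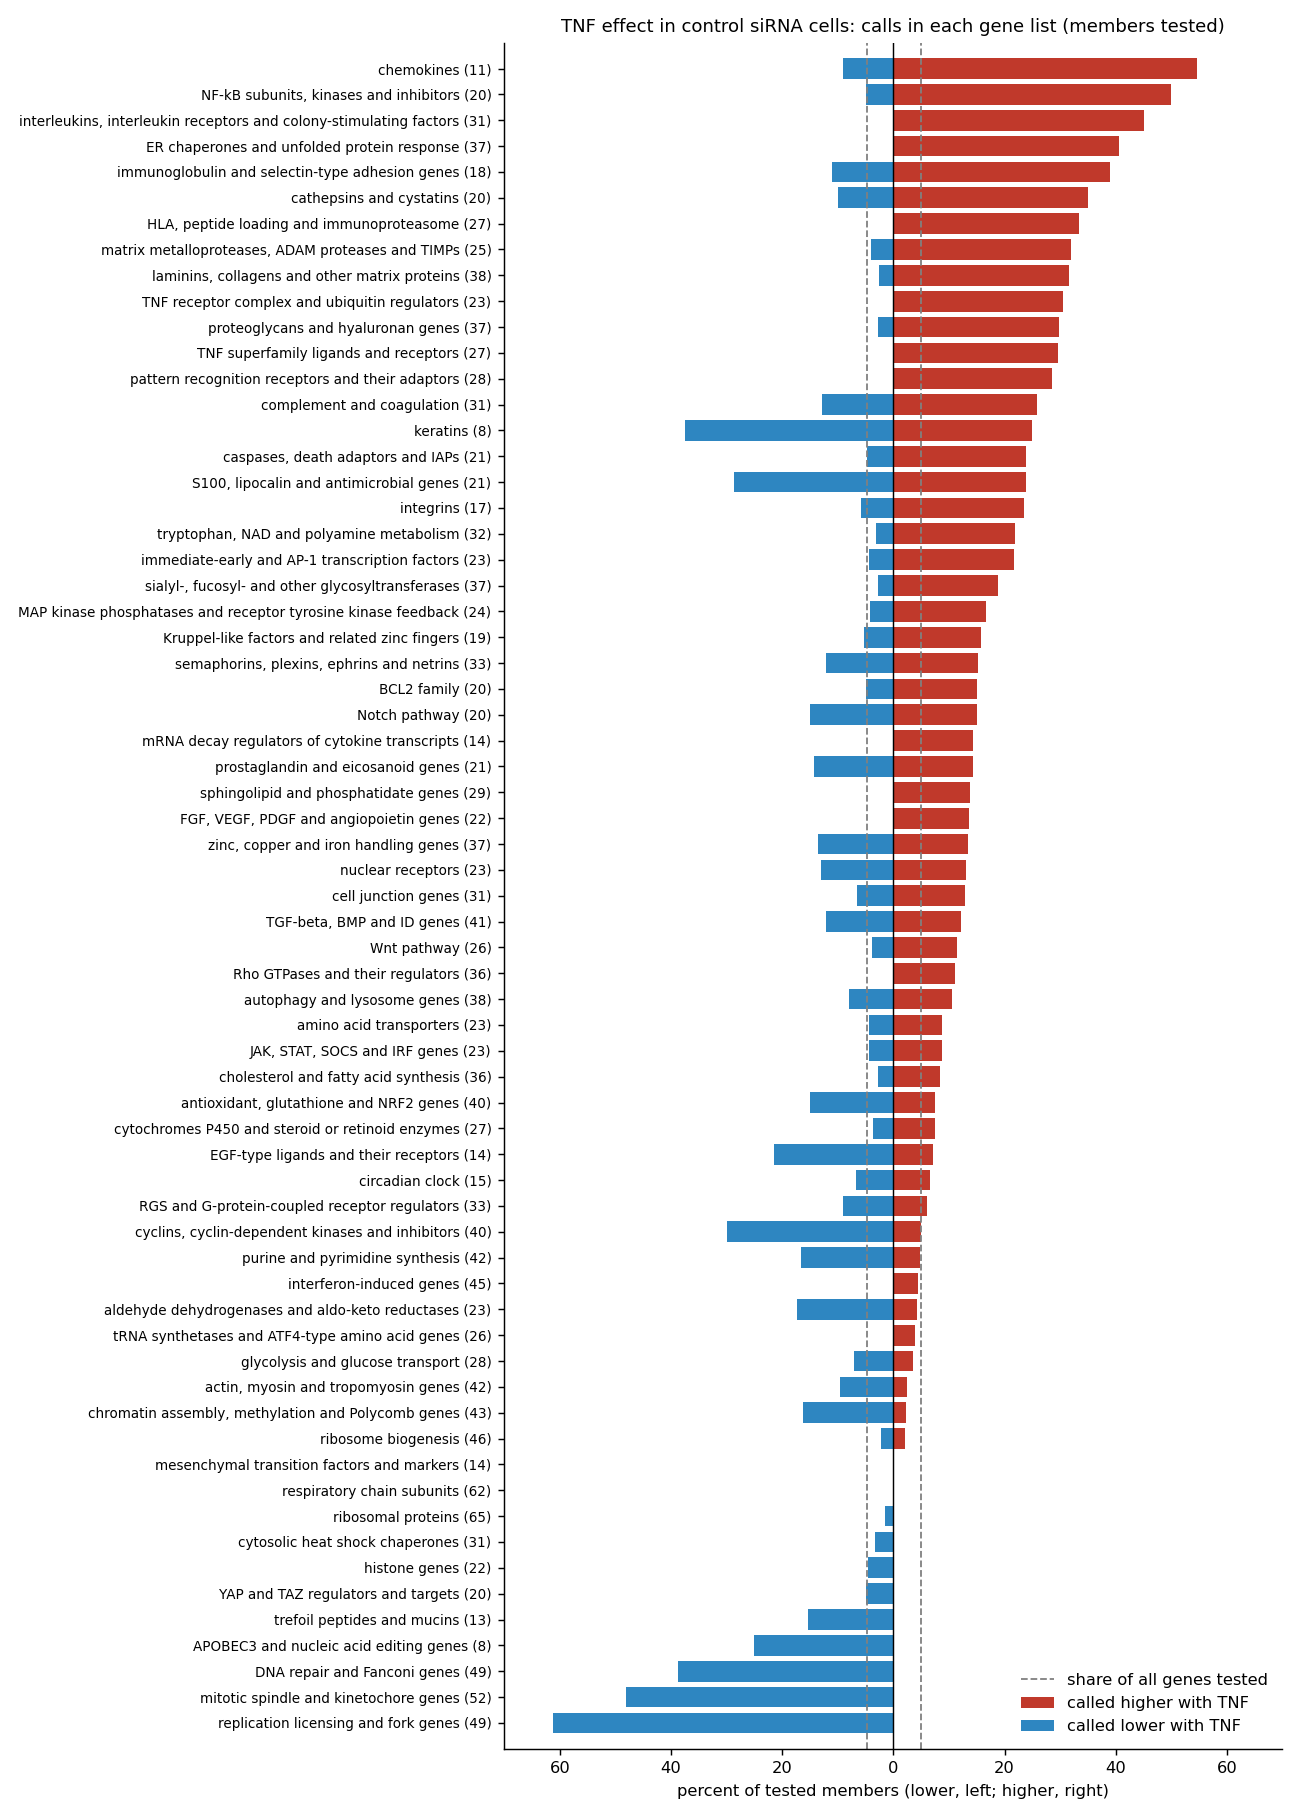
Percent of tested members called higher (right, red) and lower (left, blue) with TNF for each of 65 gene lists, with the number of members tested in brackets and dashed lines at the shares over all genes tested (4.89% higher, 4.69% lower). Chemokines (6 of 11) and NF-kB genes (10 of 20) have the largest shares higher, and replication genes (30 of 49) the largest share lower.

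Transcription factors of the immediate-early and AP-1 list were called in 6 of 23 cases, 5 higher and 1 lower. CEBPB, a factor of acute-phase genes, read 14.40, 14.28 and 14.29 with TNF and 12.96, 12.95 and 13.03 untreated, 2.53-fold higher (adjusted p = 7.01e-05), and JUNB (1.25), CEBPD (1.02) and IER3 (0.68) rose. The fall of FOSL1 (-0.52) was lost under 11 of 23 alternatives and the rise of NR4A2 (0.65) under 12. ZC3H12A (regnase-1), an RNase that degrades cytokine transcripts, read 10.54, 10.29 and 10.15 with TNF and 8.44, 8.12 and 8.63 untreated, a change of 1.93 ± 0.14 (adjusted p = 3.83e-06). Its relative ZC3H12C rose by 1.01, and these were the 2 called of 14 mRNA decay regulators (14.3%, against 9.59% of all genes tested). Of 19 Kruppel-like factors and related zinc fingers 3 rose, KLF13 (0.54), KLF6 (0.42) and KLF9 (0.36), and 1 fell, KLF2 (-0.64), a factor that restrains inflammation in endothelium. Of that list 21.1% were called, and the rises numbered 0 or 1 without any 1 control siRNA array.

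Genes of cell death and survival were called on both sides of that balance. Of 21 caspases, death adaptors and IAPs 5 rose and 1 fell. CFLAR (c-FLIP), which blocks caspase 8, rose by 0.75 and BIRC2 by 0.91, while CASP1 (0.84), the interleukin 1 converting enzyme, and MLKL (0.91), the executor of necroptosis, also rose. BID, the link between death receptors and mitochondria, read 11.04, 11.07 and 11.27 with TNF and 9.63, 9.77 and 9.71 untreated (change 1.42 ± 0.12, adjusted p = 1.42e-05), though its further probes ranged between 0.18 and 1.39. CASP2 was the member that fell (-0.78). In the BCL2 family 3 of 20 rose and 1 fell, and of these BID kept its call under all 23 alternatives.

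Metabolic lists showed a few large changes among many small ones. In the tryptophan, NAD and polyamine list 7 of 32 rose and 1 fell, with a median of 0.01. KYNU, which cleaves kynurenine, read 12.74, 12.82 and 12.83 with TNF and 9.56, 9.25 and 9.17 untreated, 11.1-fold higher (adjusted p = 5.59e-07). IDO1 starts that same route, and WARS1, the tryptophanyl-tRNA synthetase, rose by 0.53 as the member called of 26 tRNA synthetases and amino acid genes. That is 3.85% of that list, against 9.59% of all genes tested. NAMPT (0.79), the limiting enzyme of NAD salvage, ODC1 (0.87), the first enzyme of polyamine synthesis, GCH1 (0.81, other probe 0.03), which makes tetrahydrobiopterin, and ASS1 (0.82, other probe 2.45), which remakes arginine, rose too. SLC43A2, a transporter of large neutral amino acids, read 10.22, 10.02 and 10.40 with TNF and 7.78, 7.96 and 7.99 untreated, a change of 2.30 ± 0.28 (adjusted p = 0.00024).

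In the prostaglandin and eicosanoid list 3 of 21 rose and 3 fell (0 or 1 fell without any 1 control siRNA array). PTGS2, PTGES (1.19), the synthase of prostaglandin E, and PLA2G4C, a phospholipase, rose, the last by at least 2.33-fold from an undetected level. HPGD (-0.86), which breaks prostaglandins down, ALOX5AP (-0.89) and LTA4H (-0.34), of leukotriene synthesis, were called lower, and these calls were lost under 9, 6 and 11 of 23 alternatives. The sphingolipid list had 4 of 29 higher and 0 lower, 13.8% called against 9.59% of all genes tested. SPHK1, sphingosine kinase, read 8.87, 9.04 and 8.96 with TNF and 7.79, 7.79 and 7.53 untreated (change 1.25 ± 0.13, adjusted p = 5.02e-05), SMPD2, a sphingomyelinase, rose by 0.91, and SGPP2, a sphingosine phosphate phosphatase, was at least 1.96-fold higher.

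Among 37 zinc, copper and iron handling genes 5 rose and 5 fell. Metallothioneins, which bind zinc and copper, were 3 of the falls: MT1E read 12.33, 12.83 and 12.19 with TNF and 13.60, 14.16 and 14.17 untreated (change -1.52 ± 0.19, adjusted p = 0.000291, other probe -0.30), MT1X changed by -0.65 and MT1G by -0.65. SLC30A1, the zinc exporter of the plasma membrane, fell by 1.12 on the log2 scale, and the metalloreductase STEAP3 changed by -0.47 (adjusted p = 0.0118). The metalloreductases STEAP1 (1.21) and STEAP2 (0.92), the iron-regulatory aconitase ACO1 (0.95), the transferrin receptor TFRC (0.64) and SLC31A2 (0.60) made up the rises. The falls numbered 3 with control TNF replicate 1 or untreated replicate 2 left out, and 2 with control TNF replicate 3 or untreated replicate 3 left out. Metallothionein genes are near-identical copies, so their probes may share signal.

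Of 40 antioxidant genes 3 rose and 6 fell. SOD2, the mitochondrial superoxide dismutase, read 13.39, 13.49 and 13.28 with TNF and 10.71, 10.91 and 10.95 untreated, 5.78-fold higher (adjusted p = 3.75e-08), and its further probes gave 2.11 and 3.14. SQSTM1 (0.88), the autophagy receptor p62, rose, and GPX3 (-0.69), a secreted glutathione peroxidase, fell. The falls numbered 2 with control untreated replicate 1 left out and 3 with TNF replicate 1 or 3, or untreated replicate 3, left out, and 7 members rose without p53 siRNA untreated replicate 3. ALDH3A1, an aldehyde dehydrogenase, fell to 7.97, 7.88 and 8.31 with TNF, against 10.23, 10.41 and 10.55 untreated (change -2.34 ± 0.22, adjusted p = 3.14e-05). The cytochrome CYP2S1 was detected on no TNF array and was at least 1.74-fold lower (adjusted p = 0.00329), and PPARG, a nuclear receptor of lipid metabolism, fell by 0.72.

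Families of basic cell function had 0 to 3 calls each. Of 62 respiratory chain subunits limma called 0, with changes between -0.30 and 0.32 and 0 higher and 3 lower at an unadjusted p under 0.05. Of 65 ribosomal proteins 0 rose and 1 fell (RPL22, -0.44, lost under 7 of 23 alternatives), with a median of -0.06. Of 28 glycolysis and glucose transport genes SLC2A6 (0.92) rose, and SLC2A12 (-0.91) and PFKFB2 (-0.85, other probe -0.02) fell, 4 falling without p53 siRNA untreated replicate 3. That is 10.7% of the list, against 9.59% of all genes tested. Of 31 cytosolic heat shock chaperones 0 rose and 1 fell (IFT25, -0.55).

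**Figure D4:**
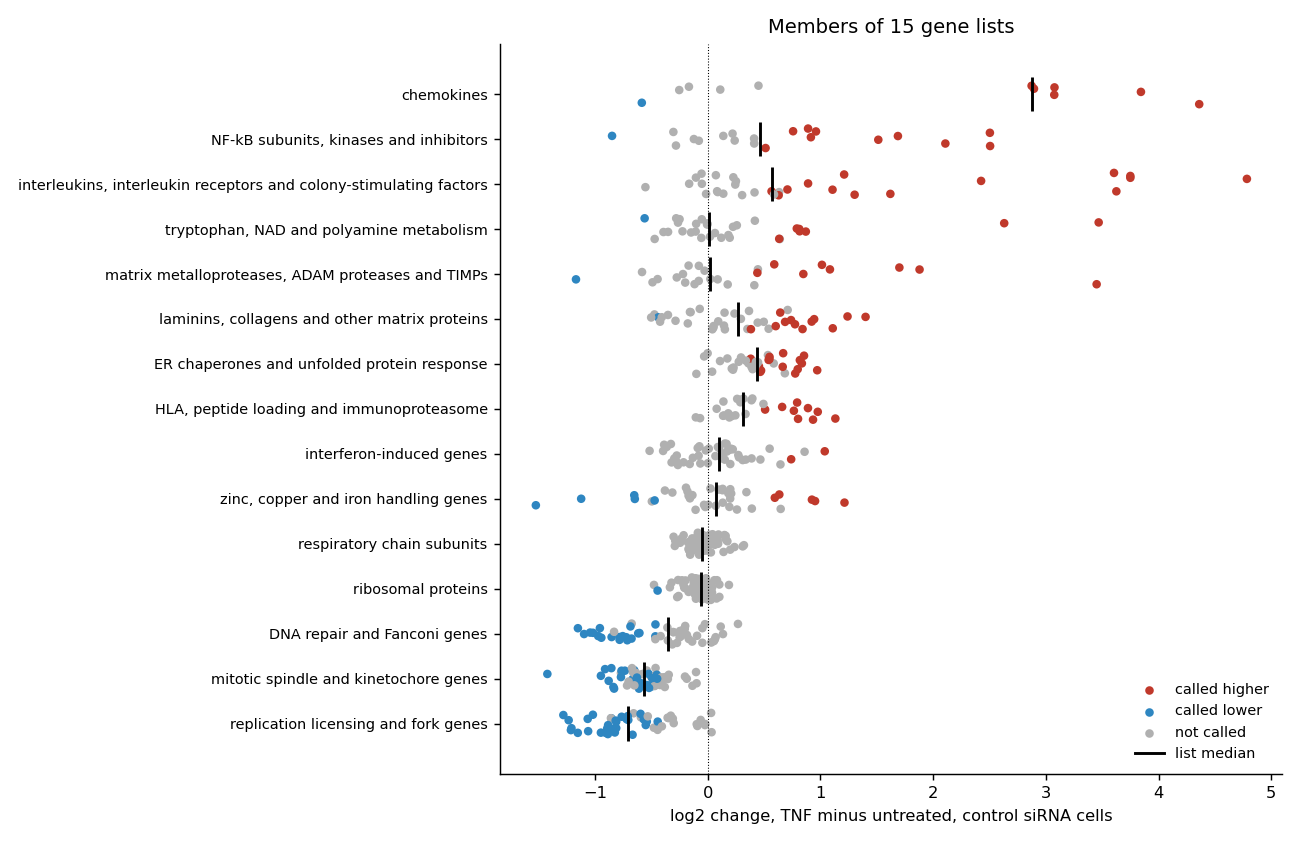
Log2 change with TNF in control siRNA cells for every tested member of 15 gene lists (points, red called higher, blue called lower, grey not called, black line at the list median). Chemokines have a median of 2.87, respiratory chain subunits lie between -0.30 and 0.32, and replication genes have a median of -0.70.

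Matrix, protease and adhesion lists also held many calls. Among laminins, collagens and other matrix proteins 12 of 38 rose and 1 fell, with a median of 0.27, and 7 rose without control TNF replicate 2. LOX, which crosslinks collagen, read 10.74, 10.73 and 10.87 with TNF and 9.39, 9.57 and 9.66 untreated (change 1.24 ± 0.19, adjusted p = 0.00118). COL16A1 (1.40), LAMC1 (0.94), the laminin gamma chain, COL7A1 (0.92), the anchoring-fibril collagen, TNC (0.84), tenascin C, and LAMB3 (0.69, further probes 0.34 to 0.69) rose as well. In this list LUM and COL1A1 are also among the fibroblast markers, and the summed level of those markers, given above, was higher with TNF; its part in the matrix result was not tested.

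Of 25 matrix metalloproteases, ADAM proteases and TIMPs 8 rose and 1 fell. ADAMTS9, a protease of proteoglycans, read 10.39, 10.28 and 10.39 with TNF and 8.52, 8.39 and 8.52 untreated, 3.68-fold higher (adjusted p = 1.69e-07). MMP1 (1.70), the interstitial collagenase, MMP14 (0.85), the membrane-bound activator of other MMPs, ADAM8 (1.09) and ADAM17 (0.59), the sheddase that releases TNF, rose. MMP1 was detected on 1 untreated array. The inhibitor TIMP4 fell to 9.04, 9.11 and 9.43 with TNF, against 10.15, 10.48 and 10.46 untreated (adjusted p = 0.000472). Among cathepsins and cystatins 7 of 20 rose and 2 fell (0 or 1 without any 1 control siRNA array), and the cysteine proteases CTSW and CTSS were detected with TNF alone, at least 3.56-fold and 1.66-fold higher. CST1, a secreted inhibitor of cysteine proteases, rose by 1.49.

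Integrins changed in 5 of 17 cases, and each of these calls held under all 23 alternatives. ITGA1, a collagen receptor chain, read 10.86, 10.51 and 10.56 with TNF and 9.0, 8.93 and 8.96 untreated, 3.21-fold higher (adjusted p = 1.95e-06). ITGAV (1.18), ITGA5 (1.06), the fibronectin receptor chain, and ITGA2 (0.80) rose, and ITGB4, the hemidesmosome chain that binds laminin, fell to 9.79, 9.79 and 9.57 with TNF, against 11.21, 11.01 and 11.12 untreated (adjusted p = 0.00675). Of 18 immunoglobulin and selectin-type adhesion genes 7 rose and 2 fell: after ICAM1 these included ICAM2 (1.34), PECAM1 (1.37) ICOSLG (1.38), a costimulator of T cells, and CD83 (1.09), against MCAM (undetected with TNF, at least 1.31-fold lower).

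Proteoglycan and hyaluronan genes rose in 11 of 37 cases and fell in 1, SDC2 (-0.71). TNFAIP6 (1.33), which links hyaluronan in inflammation, CEMIP (1.29), which degrades it, and SDC4 (1.19), a syndecan, led the rises. CEMIP read 12.04, 11.96 and 12.04 with TNF and 10.81, 10.70 and 10.66 untreated (adjusted p = 1.24e-05). The rises numbered 6 without control untreated replicate 2 and 7 without control TNF replicate 1 or 2.

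Epithelial structures moved unevenly. CLDN1, a tight junction claudin, rose to 9.71, 9.64 and 9.67 with TNF, against 6.97, 7.18 and 7.43 untreated (change 2.48 ± 0.22, adjusted p = 1.61e-05), and CGNL1, the junction plaque protein paracingulin, showed the largest fall of all. CGNL1 read 6.86, 7.06 and 6.87 with TNF and 9.69, 9.53 and 9.51 untreated, a change of -2.64 ± 0.14 (adjusted p = 1.62e-07). Over the 31 junction genes tested 4 rose and 2 fell, with 4 falls without p53 siRNA untreated replicate 3. Of 8 keratins tested 2 rose, KRT15 (0.86), a keratin of basal cells, and KRT34 (0.83), a hair keratin, and 3 fell, the simple-epithelial KRT7 (-0.81) and KRT8 (-0.74) and KRT80 (-1.0). In the list of mesenchymal transition factors and markers 0 of 14 mesenchymal transition factors and markers were called by limma, with 1 higher and 2 lower at an unadjusted p under 0.05.

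Guidance molecules named for axons changed in 9 of 33 cases, 5 higher and 4 lower, and 2 were lower with TNF replicate 2 or 3, or untreated replicate 1 or 3, left out. SLIT2, a repellent ligand of ROBO receptors, read 12.91, 12.65 and 12.63 with TNF and 11.02, 10.75 and 10.90 untreated (change 1.84 ± 0.20, adjusted p = 0.000114). The secreted semaphorin SEMA3C rose by 1.81, and EFNA1, an ephrin ligand, by 0.72. SEMA6B (-1.39) and SEMA3B (-1.15, other probe -0.49) fell.

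Growth factor pathways were called in both directions. The shares called were 24.4% of TGF-beta, BMP and ID genes, 15.4% of the Wnt list and 30% of the Notch list. For MAP kinase phosphatases and feedback regulators of receptor tyrosine kinases the share was 20.8%, against 9.59% of all genes tested. Of 41 TGF-beta, BMP and ID genes 5 rose and 5 fell, and the counts were as low as 2 in each direction without control TNF replicate 1, and 8 lower without p53 siRNA untreated replicate 3. BMP2, a bone morphogenetic protein, read 9.22, 9.36 and 9.23 with TNF and 7.42, 7.14 and 7.85 untreated, 3.48-fold higher (adjusted p = 9.41e-05), and the receptor TGFBR2 rose by 0.99. INHBB, the activin beta B chain, fell to 7.88, 8.14 and 8.10 with TNF, against 9.54, 9.60 and 9.31 untreated (adjusted p = 5.93e-05), and TGFBI by 0.89. In the Wnt list 3 of 26 rose (1 to 3 without any 1 control siRNA array), WNT5A (0.96), FZD8 (0.75) and WNT5B (0.67), and 1 fell. LEF1, a transcription factor of beta-catenin, fell to 8.25, 8.09 and 7.99 with TNF, against 9.69, 9.43 and 9.64 untreated (change -1.48 ± 0.15, adjusted p = 7.05e-05). In the Notch list 3 of 20 rose (1 to 3 without any 1 control siRNA array), the target HEY1 (0.61), ADAM17 (0.59) and the inhibitor NUMB (0.39), and 3 fell, the fringe glycosyltransferases MFNG (-1.16) and LFNG (-0.82) and the target HES1 (-0.64). The calls of HEY1, NUMB and HES1 were lost under 8, 10 and 11 of 23 alternatives. That of LFNG was lost when its probes were averaged. Of 24 MAP kinase phosphatases and feedback regulators of receptor tyrosine kinases 4 rose and 1 fell, with 2 to 4 rises without any 1 control siRNA array. DUSP10, a phosphatase, was at least 1.71-fold higher, LRIG1 (1.0), ERRFI1 (0.65) and DUSP16 (0.54) rose, and the feedback inhibitor SPRY1 (-0.56) fell. The call of DUSP16 was lost under 12 of 23 alternatives.

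Of 37 endoplasmic reticulum chaperones and unfolded protein response genes 15 rose, 0 fell and 22 were not called, with a median of 0.44 and changes from -0.10 to 0.97. HSPA5 (BiP), the main chaperone of the compartment, read 12.19, 12.44 and 12.28 with TNF and 11.44, 11.56 and 11.36 untreated, 1.81-fold higher (adjusted p = 0.00138). EIF2AK3 (0.97), the stress sensor PERK, DNAJC3 (0.84), DNAJB9 (0.82) and HYOU1 (0.80), co-chaperones, SEL1L (0.67), of the degradation pathway, and XBP1 (0.46) rose. The stress factors ATF4 (0.23, adjusted p = 0.2) and DDIT3 (0.04, adjusted p = 0.942) were not called. The count was 10 to 11 without any 1 control siRNA array and 23 without p53 siRNA untreated replicate 3.

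Genes of DNA replication formed the largest group lower with TNF: 30 of 49 fell, 0 rose, and the median was -0.70. In RNA of whole cultures fewer dividing cells and less of a transcript per cell cannot be told apart. The helicase subunit MCM2 fell to 9.97, 9.97 and 9.83 with TNF, against 11, 11.03 and 11.19 untreated (change -1.15 ± 0.12, adjusted p = 9.1e-05). POLE2, a subunit of DNA polymerase epsilon, fell to 10.43, 10.51 and 10.51 with TNF, against 11.51, 11.57 and 11.56 untreated (change -1.06 ± 0.11, adjusted p = 6.66e-05). MCM3 changed by -0.87, GINS2, of the same helicase, by -1.23, WDHD1 by -1.28, PCNA, the sliding clamp, by -0.91 and the primase PRIM1 by -1.02. The groups of these 7 genes did not overlap, and 24 to 27 members fell without any 1 control siRNA array.

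The promoter windows of replication genes were searched for TTTCCCGC or TTTGGCGC, patterns bound by E2F factors, which drive genes of DNA synthesis. Of 26 windows of called members 12 held at least 1 (46.2%). The share was 8.49% for genes called lower, 15.9% for those called lower at least 2-fold and 1.89% for those called higher. It was 3.44% for genes not called, 3.61% for genes tested and 2.31% for all promoters. The box CCAAT stood in 15 of the 26 (57.7%), against 44.4% of genes called lower, 36.6% of genes not called and 35.7% of all promoters. The 3 windows below are examples among the members named above and were picked because they hold the pattern. The E2F match on either strand is in capitals. They lie at chr14:49688165-49688464 for POLE2 (minus strand), chr6:52284693-52284992 for MCM3 (minus) and chr16:85688905-85689204 for GINS2 (minus).
POLE2: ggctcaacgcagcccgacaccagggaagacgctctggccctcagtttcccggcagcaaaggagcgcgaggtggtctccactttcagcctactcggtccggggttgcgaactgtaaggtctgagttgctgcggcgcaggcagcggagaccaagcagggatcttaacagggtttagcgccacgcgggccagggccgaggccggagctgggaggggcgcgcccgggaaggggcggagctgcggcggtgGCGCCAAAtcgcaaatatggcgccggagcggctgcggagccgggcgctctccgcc
MCM3: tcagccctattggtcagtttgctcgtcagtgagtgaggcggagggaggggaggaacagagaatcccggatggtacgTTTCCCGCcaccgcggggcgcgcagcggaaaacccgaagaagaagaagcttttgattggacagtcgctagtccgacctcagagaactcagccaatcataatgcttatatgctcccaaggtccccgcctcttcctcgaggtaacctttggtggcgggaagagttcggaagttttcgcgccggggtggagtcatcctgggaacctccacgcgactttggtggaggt
GINS2: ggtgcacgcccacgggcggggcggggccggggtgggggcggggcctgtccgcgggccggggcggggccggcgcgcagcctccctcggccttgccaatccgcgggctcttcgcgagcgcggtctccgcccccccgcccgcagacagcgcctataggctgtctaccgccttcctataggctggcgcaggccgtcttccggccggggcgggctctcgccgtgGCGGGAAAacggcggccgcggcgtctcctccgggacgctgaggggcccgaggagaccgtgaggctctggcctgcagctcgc
The first base of the match lay 5 bases before the start in POLE2, 174 in MCM3 and 31 in GINS2.

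Genes that act beside replication were counted next. Of 49 DNA repair and Fanconi genes 19 fell and 0 rose, with a median of -0.35. UNG, which removes uracil from DNA, read 11.67, 11.86 and 11.76 with TNF and 12.87, 12.75 and 12.95 untreated (change -1.10 ± 0.14, adjusted p = 0.000285), with further probes at -1.21 and -0.29, and RAD51AP1 (-0.97) and XRCC3 (-1.04), of homologous recombination, fell. Of 43 chromatin genes 7 fell and 1 rose, HMGA2 (0.75), a call lost when its probes were averaged. The falls included CHAF1B (-1.20), of the histone chaperone that follows the fork, UHRF1 (-1.17), which copies DNA methylation, and the Polycomb methyltransferase EZH2 (-0.76). TYMS (-0.99), which makes thymidylate, and RRM2 (-0.84), of ribonucleotide reductase, were among 7 of 42 nucleotide synthesis genes that fell, a count of 2 to 6 without any 1 control siRNA array and 13 without p53 siRNA untreated replicate 3. In that list 2 rose, CDA (0.81), cytidine deaminase, and TYMP (1.0), thymidine phosphorylase. Of 22 tested histone genes 1 fell (H2AX, -0.88), which is 4.55%, against 4.69% of all genes tested.

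Of 52 mitotic spindle and kinetochore genes 25 fell and 0 rose, with a median of -0.56. TOP2A, the topoisomerase that untangles chromosomes, read 12.75, 12.66 and 12.61 with TNF and 13.51, 13.45 and 13.56 untreated (change -0.84 ± 0.13, adjusted p = 0.0015), and AURKB (-0.66), a mitotic kinase, and PLK4 (-0.88), which copies centrioles, fell. The falls numbered 8 without control untreated replicate 1 or 3, 11 without control TNF replicate 1, 12 without control TNF replicate 3, 13 without control TNF replicate 2 and 16 without control untreated replicate 2. Of 40 cyclins, kinases and inhibitors 12 fell and 2 rose. E2F8, an E2F repressor, fell to 6.49, 6.22 and 6.17 with TNF, against 7.42, 7.40 and 7.80 untreated (adjusted p = 0.000307), and CDK2 (-0.69) and CCNE1 (-0.83), partners at the entry to S phase, fell. No E2F8 probe was detected on all 6 control siRNA arrays, and its values with TNF lay near background. CDKN1A, the inhibitor p21, rose to 14.28, 14.29 and 14.39 with TNF, against 13.34, 13.30 and 13.35 untreated (change 0.99 ± 0.16, adjusted p = 0.00187). Of this list 4 fell without control TNF replicate 3 and 6 without control untreated replicate 2 or 3.

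Genes outside the replication and mitosis lists were also among the 25 largest falls. The trefoil peptides TFF2 and TFF3, which protect mucosal surfaces, fell side by side. TFF2 read 8.94, 9.02 and 8.68 with TNF and 10.71, 10.63 and 10.66 untreated, and TFF3 read 9.34, 9.10 and 9.35 with TNF and 11.07, 11.12 and 10.90 untreated, changes of -1.78 ± 0.14 (adjusted p = 6.6e-06) and -1.76 ± 0.14 (adjusted p = 7.73e-06). TFF2 and TFF3 both lie on chromosome 21, and they were the 2 called of 13 trefoil and mucin genes (15.4%, against 9.59% of all genes tested). BGLAP, osteocalcin, fell to 8.23, 8.47 and 8.05 with TNF, against 10.14, 10.35 and 10.16 untreated (adjusted p = 9.72e-06). ZNF488, a transcriptional repressor, changed by -2.23 ± 0.24 and C9orf152 by -2.22 ± 0.24, each detected on 1 TNF array and all untreated arrays.

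The epithelial sodium channel subunit SCNN1A fell to 8.62, 8.38 and 8.38 with TNF, against 10.26, 10.06 and 10.22 untreated (change -1.72 ± 0.33, adjusted p = 0.00604). SLC47A1, an exporter of organic cations, was detected on no TNF array and was at least 1.7-fold lower. The others of the 25 largest falls included TRIL (-1.77), an accessory protein of Toll-like receptors, SLC1A7 (-1.60), a glutamate transporter, CALHM3 (-1.67), a channel subunit, TESC (-1.52), a calcium-binding protein, CHST9 (-1.45), a sulfotransferase, and VSTM2L (-1.41). TESC and CHST9 were each detected on 1 TNF array, so their levels with TNF lay near background. Of these 25 falls 24 kept their call under each of the 22 or 23 alternatives in which they were tested, the exception being REEP1 (-1.55), which lost it under 1.

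The last comparison asked where the response depended on the siRNA. In cells given the p53 siRNA, TNF changed 976 genes (7.8% of those tested). Of the 612 rises in control siRNA cells 309 (50.5%) were called higher there too, which is 62.6% of the 494 rises in p53 siRNA cells, and of the 587 falls 215 (36.6%) were shared, 44.6% of the 482 there. The difference between the responses, tested as an interaction in limma, was called for 27 genes (0.216%), for 132 without p53 siRNA untreated replicate 3, and for 11 to 16 without any 1 control siRNA array or any 1 p53 siRNA TNF array. Of the 612 rises in control siRNA cells 16 were larger than in p53 siRNA cells and 3 smaller, and of the 587 falls 3 were larger. These counts cover only genes called in control siRNA cells, a choice that favours genes with the larger response there. Over all 27 calls the difference, control minus p53 siRNA, was positive for 17 and negative for 10. For the remaining genes called with TNF in control siRNA cells the difference did not pass the test, which does not show that the responses were alike.

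MMP9 differed most. In control siRNA cells it read 9.07, 8.96 and 9.06 with TNF and 5.54, 5.60 and 5.61 untreated, and in p53 siRNA cells 5.56, 5.60 and 5.73 with TNF and 5.48, 5.49 and 5.55 untreated, so its response was larger in control siRNA cells by 3.33 ± 0.14 (SE, adjusted p = 1.43e-07). Only the control siRNA TNF arrays stood above the rest. EBI3 changed by 3.60 in control and 1.59 in p53 siRNA cells (adjusted p of the difference = 0.00505), and IDO1 by 2.63 in control and 0.63 in p53 siRNA cells (adjusted p = 0.00816). CTSS read 7.29, 7.18 and 7.03 with TNF and 5.64, 5.31 and 5.42 untreated in control siRNA cells, against 6.03, 5.74 and 5.62 with TNF and 5.56, 5.62 and 5.64 untreated in p53 siRNA cells (difference 1.52 ± 0.19, adjusted p = 0.00558). CTSW gave a difference of 1.79 ± 0.19 (adjusted p = 0.00493) and CXCL10 one of 1.77 ± 0.21 (adjusted p = 0.00505). Of these genes MMP9, EBI3, IDO1, CTSS and CTSW were undetected in untreated control siRNA cells, so their differences are fitted values and not bounds. MMP9, CTSS and CTSW were detected on the control siRNA TNF arrays alone, so they were tested only through the group where they are high. Their changes in p53 siRNA cells lie between values not above background.

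NLRP3 and IL1B differed in their levels as well as in their responses. NLRP3 read 9.51, 9.80 and 9.73 with TNF and 8.31, 8.34 and 8.30 untreated in control siRNA cells, against 6.64, 6.60 and 6.59 with TNF and 6.35, 6.33 and 6.30 untreated in p53 siRNA cells (difference 1.08 ± 0.14, adjusted p = 0.00816). IL1B read 11.90, 11.87 and 11.75 with TNF and 7.94, 8.23 and 8.08 untreated in control siRNA cells, against 13.03, 13.06 and 13.08 with TNF and 10.21, 10.25 and 10.06 untreated in p53 siRNA cells (difference 0.87 ± 0.15, adjusted p = 0.0496). For NLRP3 the control siRNA arrays were the higher ones, and for IL1B the p53 siRNA arrays of the same treatment were.

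The falls of RGCC, a regulator of the cell cycle, and MT1E were larger in control siRNA cells. RGCC read 9.77, 9.92 and 10.03 with TNF and 11.52, 11.65 and 11.48 untreated in control siRNA cells, against 11.74, 11.72 and 11.66 with TNF and 11.82, 12.44 and 12.24 untreated in p53 siRNA cells (difference -1.19 ± 0.21, adjusted p = 0.0496). MT1E was not called with TNF in p53 siRNA cells (0.10), and its difference was -1.63 ± 0.27 (adjusted p = 0.0359). Chosen after their values were seen, the 3 smaller rises were those of PI3 (fitted changes of 1.10 in control and 3.27 in p53 siRNA cells), C11orf96 (1.32 in control and 2.35 in p53 siRNA cells) and ABCA13, which was not detected on any control siRNA array, and the third larger fall was that of ZNF300P1 (-0.57 in control and 0.60 in p53 siRNA cells), the 1 gene called in opposite directions.

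**Figure D5:**
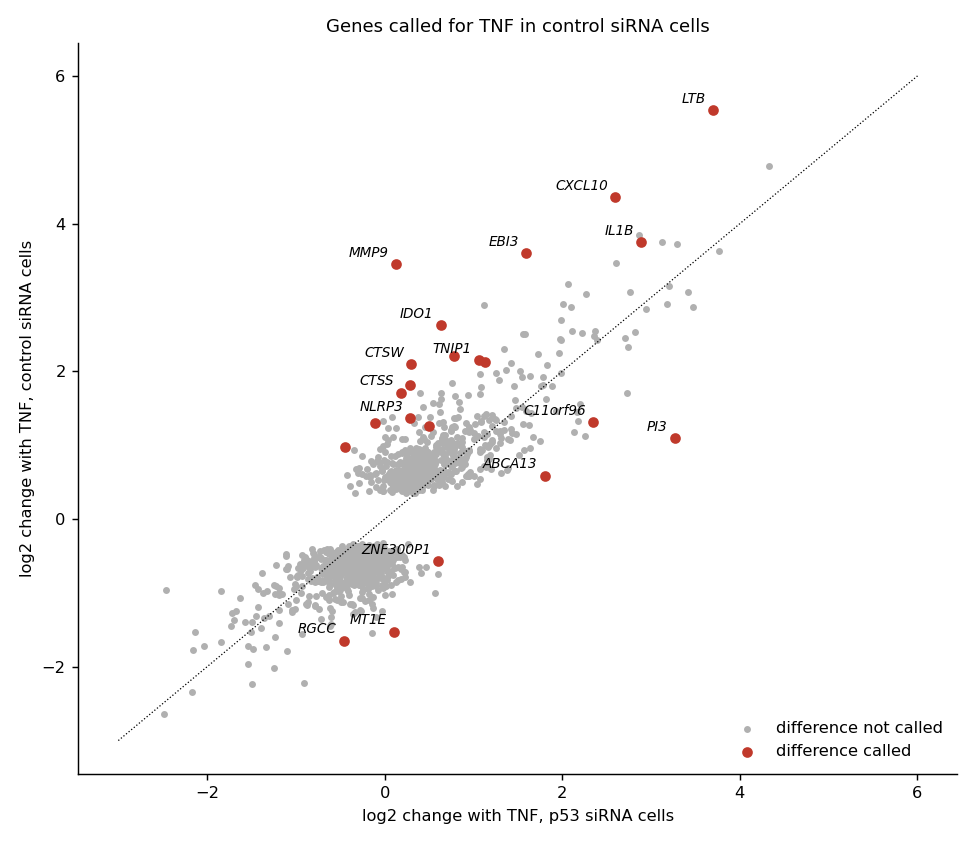
Log2 change with TNF in control siRNA cells (vertical) against that in p53 siRNA cells (horizontal) for the 1199 genes called in control siRNA cells, with the 22 genes whose difference was called in red (16 of them named) and the dotted line at equal change. MMP9 lies farthest from the line, at 3.45 in control and 0.12 in p53 siRNA cells.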

How the data were processed

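Total RNA of 12 samples in 4 groups of 3 was read on Illumina bead arrays. Per the file headers, each array has for its 47322 probes a linear intensity and the detection p-value deposited with it. The submitters' processing notes name GenomeStudio, without a version in the sources used here. These intensities had unequal medians and were treated as not normalised. A table of intensities processed by the authors (47313 probes, column medians of 241.6, log2 correlation with the signals of at least 0.999) served only as an alternative, because nothing states how it was normalised.

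Background and array differences were removed by neqc (limma 3.58.1, R 4.3.3), with the detection p-values as input, an offset of 16, quantile normalisation and a final log2. A probe entered if 3 or more of the 12 arrays had its detection p below 0.05, which left 23079 probes. Names came from an older platform annotation, matched by Entrez ID to RefSeq GRCh38.p14, and 16849 of those probes had 1 gene. The brightest such probe stood for each of 12507 genes. A gene counted as detected on an array if any of its probes, kept or not, had a detection p below 0.05 there. Detection can thus come from a probe other than the one whose values are given. A gene detected on no array of a group was taken as not above background in that group. A model with 1 mean per group over all 12 arrays (lmFit, eBayes, 8 residual and 4.03 prior degrees of freedom) gave the TNF effect in control siRNA cells and its difference from that in p53 siRNA cells, each two-sided with Benjamini-Hochberg adjustment over all genes. In simulated data with independent normal noise, 200 of 12507 genes were changed in the control siRNA TNF group. There 74% of changes of 1 and 99% of changes of 2 on the log2 scale were called for the TNF effect, with 9 false calls among unchanged genes. The real arrays gave 1199 calls, so these shares need not hold for them. The number of arrays limits the precision.

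The genes named are the 25 largest rises and falls among calls with no overlap and detection on all arrays of the higher group, up to 6 called members per list by adjusted p, further members whose function the text needs, genes called for the difference, and markers. The comparison, lists and markers were chosen with earlier results of these data known. Same-numbered samples did not deviate together (correlations 0.052, -0.015 and -0.061), so the main fit has no block. Alternatives covered scaling, background correction, offset, filter, probe choice, the 6 arrays alone, array weights, a replicate block, the authors' table and each array left out. The transcript that the siRNA targets is not reported here.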

Additional observations from a re-analysis of the deposited data

Results flagged for a closer look

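For 22 of the genes called with TNF in control siRNA cells the response to TNF differed between control siRNA and p53 siRNA cells in the interaction test of limma (adjusted p under 0.05 over 12507 genes). The difference, as the change in control siRNA cells minus that in p53 siRNA cells on the log2 scale, was largest for MMP9, at 3.33 (adjusted p = 1.43e-07), a gene at 3.45 in control and 0.12 in p53 siRNA cells. EBI3 differed by 2.02 (adjusted p = 0.00505), IDO1 by 2.0 (adjusted p = 0.00816), LTB by 1.85 (adjusted p = 0.0254) and CTSW by 1.79 (adjusted p = 0.00493). CXCL10 differed by 1.77 (adjusted p = 0.00505), CTSS by 1.52 (adjusted p = 0.00558), TNIP1 by 1.09 (adjusted p = 0.00816), NLRP3 by 1.08 (adjusted p = 0.00816) and IL1B by 0.87 (adjusted p = 0.0496). SERPINA3 differed by 1.54 (adjusted p = 0.00572), ISM1 by 1.43 (adjusted p = 0.0496), SOST by 1.42 (adjusted p = 0.0496), NUAK2 by 1.40 (adjusted p = 0.0359), STX11 by 1.0 (adjusted p = 0.0496) and CD82 by 0.76 (adjusted p = 0.0496). These 16 rose more in control siRNA cells, but only genes called there are counted, which favours larger responses there. The fitted rises of PI3 (-2.17, adjusted p = 0.00505), ABCA13 (-1.21, adjusted p = 0.0359) and C11orf96 (-1.03, adjusted p = 0.0496) were smaller there. ABCA13 was not detected on any control siRNA array and was tested only through its detection on p53 siRNA arrays. Its change in control siRNA cells therefore lies between values not above background. MMP9, CTSW and CTSS were detected on the control siRNA TNF arrays alone, so their changes in p53 siRNA cells lie between such values. RGCC differed by -1.19 (adjusted p = 0.0496) and MT1E by -1.63 (adjusted p = 0.0359), both with the larger fall in control siRNA cells, and ZNF300P1 by -1.18 (adjusted p = 0.0297), with a fall in control and a rise in p53 siRNA cells. SERPINA3, ISM1, SOST, NUAK2, STX11, CD82, PI3, ABCA13, C11orf96 and ZNF300P1 are given because both tests called them, after their values were seen. The p53 siRNA untreated replicate 3, which stands apart from its group, enters each of these differences. Without it 132 genes were called for the difference, against 27 with it, and 11 to 16 without any 1 control siRNA array or any 1 p53 siRNA TNF array.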

How the results depend on the processing

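The TNF effect in control siRNA cells gave 1199 calls, 612 higher and 587 lower. Median scaling gave 793 (352 lower), array weights 2215 (1079 higher, 1136 lower) and the 6 control siRNA arrays alone 926 lower. The other planned settings stayed within 1.5 times these counts, the replicate block among them with 1088 calls (553 higher, 535 lower), although the numbers were not found to pair the samples. With 1 array left out the calls ran from 736 to 1894, with 422 to 942 higher and 314 to 952 lower. No gene called in the report changed direction under any setting except 1 when a gene's probes were averaged, and the share of calls that were higher ran from 47.9% to 57.3%. Of the 309 genes selected by the naming rule 214 kept their call under every alternative in which they were tested (21 to 23 for each gene), and 0 reversed. Medians of lists moved by more than the spread between replicates in 230 of 1495 cases.

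The response difference gave 27 calls, 17 higher and 10 lower. Median scaling gave 12 (11 higher, 1 lower), no background correction 50 (27 higher, 23 lower), detection on all 6 arrays 7 (4 higher, 3 lower), array weights 18 lower, and the authors' processed values 52 (26 higher, 26 lower). The replicate block gave 17 calls, 3 of them lower. With 1 array left out the calls ran from 11 to 132, with 10 to 67 higher and 1 to 65 lower. The cause of these shifts was not tested, apart from settings that leave out arrays or genes. Dim probes limit the falls: a gene not above background with TNF has only a bound. The array names come from an older annotation, and gene copies such as HLA, SAA and metallothionein genes may share signal.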

Other observations

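Of the 1199 called genes 759 stood in no list, and the genes below were chosen among them after their values were seen. BMPER, a secreted protein that binds bone morphogenetic proteins, read 8.70, 8.37 and 7.98 with TNF and 5.98, 5.53 and 5.90 untreated, where it was undetected, and was at least 3.77-fold higher (limma adjusted p = 1.85e-05). The groups did not overlap. The protease inhibitors SERPINA3, antichymotrypsin, and SERPINA1, antitrypsin, changed by 1.82 ± 0.14 (adjusted p = 3.83e-06) and 1.80 ± 0.15 (adjusted p = 7.51e-06). RRAD, a small GTPase, rose by 2.43 and MGLL, a lipase of monoacylglycerols, by 1.55. The carbonic anhydrases moved in opposite directions, with a change of 1.24 for CA12 (adjusted p = 0.0212) and -1.0 for CA2 (adjusted p = 0.0112). IGFBP5, which binds insulin-like growth factors, read 5.96, 6.08 and 6.22 with TNF and 7.47, 7.10 and 7.68 untreated, was undetected with TNF and was at least 2-fold lower (adjusted p = 0.00317), and FOLR1, a folate receptor, fell by 1.23 on the log2 scale.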
